A study of Mus musculus with 74 samples.

Results

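H3K9me3 peaks of mouse SCNT embryos were compared between the end of the 1-cell stage, 14 h post activation (14 hpa), and the 2-cell stage. By the paper's methods the 2-cell embryos were collected at the late 2-cell stage. All peaks of both stages on the 19 autosomes were taken, 144004 peaks at 14 hpa and 105358 at the 2-cell stage, and compared per gene, per promoter and per 1-kb window. Of 2395928 autosomal windows, 194643 were marked at 14 hpa and 111025 at the 2-cell stage, a window being marked if 50% or more of it lay in peaks. Trimethylation of histone H3 at lysine 9 (H3K9me3) was measured by ULI-NChIP-seq, in which native chromatin is cut with micrococcal nuclease and precipitated from few cells. The labels give 4 precipitated and 4 input libraries at 14 hpa and 6 precipitated and 2 input libraries at the 2-cell stage, so 10 of the 41 H3K9me3 libraries of the series bear on the comparison.

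Both groups were made in the same way. Nuclei of cumulus cells (CC), the somatic cells around the oocyte, were injected into enucleated oocytes of superovulated B6D2F1 females. The reconstructed embryos were activated for 6 h with strontium chloride (SrCl2) in the presence of cytochalasin B, which blocks extrusion of a polar body, and were then cultured in G-1 PLUS medium. No genotype, drug or injected RNA differed between the stages by the labels, and both stages carried a somatic genome. Each list was called by the authors on merged libraries of pooled embryos. With 1 value per stage there was no replicate error, no test was run, and a mark lost from some embryos cannot be told apart from a mark weakened in all of them. Stage also cannot be told apart from the number of merged libraries and inputs, and the part of these numbers in the results was not tested. The labels name only the stage. Peak lists hold no expression, so the stage could not be checked against marker genes.

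H3K9me3 is written by SUV39H and SETDB1 enzymes, removed by KDM4 demethylases and bound by HP1 proteins. It holds transposons and clustered gene families silent as heterochromatin. Between late 1-cell and 2-cell the mouse embryo starts its own transcription, first at a small set of genes and then broadly, an event called zygotic genome activation (ZGA). H3K9me3 inherited from the donor nucleus is a known barrier to this activation in cloned embryos.

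The sequences below stand for the contrasts described here. The first pair comes from the middle of stretches that were covered at 14 hpa and held no 2-cell peak. The next comes from a stretch covered at the 2-cell stage only, and the last from a stretch covered at both stages. They are read from the plus strand of GRCm38.p6 (mm10), with each CG dinucleotide in capitals.
Gm3106, marked at 14 hpa only, chr5:94214716-94214955: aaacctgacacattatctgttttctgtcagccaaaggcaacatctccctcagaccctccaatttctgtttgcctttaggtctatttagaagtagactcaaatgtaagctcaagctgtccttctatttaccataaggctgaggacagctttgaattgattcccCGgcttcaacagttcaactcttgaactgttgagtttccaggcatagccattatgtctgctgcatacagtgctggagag
Gm16513, marked at 14 hpa only, chr5:95187108-95187347: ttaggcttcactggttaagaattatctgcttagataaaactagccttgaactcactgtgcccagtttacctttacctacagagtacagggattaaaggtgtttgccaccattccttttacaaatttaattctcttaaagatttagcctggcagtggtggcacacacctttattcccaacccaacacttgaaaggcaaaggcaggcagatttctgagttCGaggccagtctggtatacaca
Snx9 intron, marked at 2-cell only, chr17:5882482-5882721: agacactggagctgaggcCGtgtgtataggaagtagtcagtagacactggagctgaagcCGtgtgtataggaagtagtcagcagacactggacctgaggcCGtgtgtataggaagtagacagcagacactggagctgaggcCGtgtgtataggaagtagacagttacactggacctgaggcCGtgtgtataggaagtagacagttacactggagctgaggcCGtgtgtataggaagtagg
Ajap1, marked at both stages, chr4:153434048-153434287: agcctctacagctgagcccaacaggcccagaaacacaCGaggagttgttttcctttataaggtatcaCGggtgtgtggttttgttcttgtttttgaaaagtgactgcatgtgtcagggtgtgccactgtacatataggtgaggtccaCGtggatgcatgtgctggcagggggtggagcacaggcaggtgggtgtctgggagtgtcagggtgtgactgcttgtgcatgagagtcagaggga

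The Gm3106 and Gm16513 sequences each hold 1 CG, the Ajap1 sequence 3 and the Snx9 sequence 6. The Snx9 sequence is a short unit repeated in tandem. The Gm3106 sequence occurs 6 times, letter for letter, on the assembled chromosomes, the Gm16513 sequence 5 times, the Snx9 sequence 2 times and the Ajap1 sequence once. Reads from identical copies cannot be assigned to 1 of them, and the part of this in the values at the first 3 places was not tested.

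Promoters are shown from the RefSeq sequences of the same build, 250 bases before to 50 after the start of transcription, on the strand of the gene and again with CG in capitals. B4galt5 had a peak at 14 hpa only, Pfn1 at the 2-cell stage only and Henmt1 at both, and Tdpoz4 is a gene of the 2-cell stage whose promoter was marked at 14 hpa only.
B4galt5 promoter, lost, minus strand, chr2:167349129-167349428: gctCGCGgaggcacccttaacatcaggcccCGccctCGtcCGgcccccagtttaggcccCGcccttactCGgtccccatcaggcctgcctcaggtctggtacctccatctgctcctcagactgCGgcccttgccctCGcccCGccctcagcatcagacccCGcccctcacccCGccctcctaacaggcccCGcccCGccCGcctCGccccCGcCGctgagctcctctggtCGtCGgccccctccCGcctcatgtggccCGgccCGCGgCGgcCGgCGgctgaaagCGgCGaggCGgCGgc
Tdpoz4 promoter, lost, plus strand, chr3:93796148-93796447: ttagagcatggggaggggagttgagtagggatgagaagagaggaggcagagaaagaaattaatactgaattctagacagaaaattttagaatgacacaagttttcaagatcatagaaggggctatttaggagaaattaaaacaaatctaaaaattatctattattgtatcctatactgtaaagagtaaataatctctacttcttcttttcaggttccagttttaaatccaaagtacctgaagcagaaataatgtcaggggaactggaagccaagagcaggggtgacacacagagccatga
Henmt1 promoter, kept, plus strand, chr3:108940307-108940606: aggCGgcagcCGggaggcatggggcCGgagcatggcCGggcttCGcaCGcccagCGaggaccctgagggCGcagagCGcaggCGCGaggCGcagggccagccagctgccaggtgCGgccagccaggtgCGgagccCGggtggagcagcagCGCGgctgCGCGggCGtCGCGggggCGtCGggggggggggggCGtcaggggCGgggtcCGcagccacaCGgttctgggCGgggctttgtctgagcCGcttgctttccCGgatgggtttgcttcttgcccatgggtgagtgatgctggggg
Pfn1 promoter, gained, minus strand, chr11:70654601-70654900: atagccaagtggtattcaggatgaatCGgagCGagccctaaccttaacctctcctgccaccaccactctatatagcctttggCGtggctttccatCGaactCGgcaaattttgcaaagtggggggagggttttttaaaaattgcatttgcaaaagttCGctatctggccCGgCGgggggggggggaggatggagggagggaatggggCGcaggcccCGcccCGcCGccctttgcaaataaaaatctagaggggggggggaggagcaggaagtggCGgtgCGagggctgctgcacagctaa

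These 300 bases hold 31 CG at B4galt5, none at Tdpoz4, 31 at Henmt1 and 14 at Pfn1. A promoter without a single CG and a promoter dense in CG were thus both among those marked at 14 hpa only.

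The covered length was compared first. Peaks covered 206.7 Mb of the autosomes at 14 hpa, 8.63% of 2395.9 Mb of assembled sequence, and 122.7 Mb (5.12%) at the 2-cell stage. The 2-cell length was 0.593 times that at 14 hpa, and it was shorter on 19 of 19 autosomes, with ratios from 0.510 on chromosome 14 to 0.698 on chromosome 11. Median peak width was 866 bp at 14 hpa and 662 bp at the 2-cell stage, whereas the median fold enrichment over input, as the authors' peak caller gave it, was 2.73 and 3.10. Fewer, narrower peaks of higher fold thus made up the 2-cell list. Chromosome 7, which carries many tandem gene families, was covered most at both stages, 16.3% at 14 hpa and 8.63% at the 2-cell stage, and chromosome 19 least at 14 hpa (6.10%, then 3.74%).

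**Figure D1:**
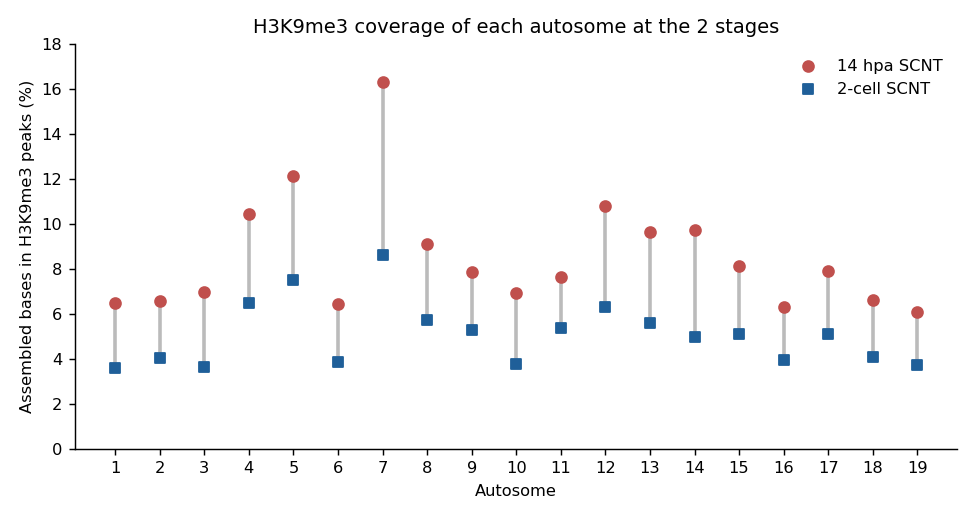
Share of the assembled bases of each autosome (x axis) that lay in H3K9me3 peaks, in percent (y axis), at 14 hpa (red circles) and at the 2-cell stage (blue squares), 1 pooled list per stage. Every autosome had less covered length at the 2-cell stage, and chromosome 7 went from 16.3% to 8.63%.

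The lists shared 90.8 Mb. A further 115.9 Mb were covered at 14 hpa only and 31.9 Mb at the 2-cell stage only. Of the 14 hpa length 43.9% was also covered at the 2-cell stage, and of the 2-cell length 74.0% was covered at 14 hpa. The Jaccard index (shared length divided by total covered length) was 0.380, between 0.339 and 0.428 on single autosomes. Overlap rose with peak width. Of the 14 hpa peaks under 500 bp, 79.9% overlapped no 2-cell peak, against 12.7% of peaks of 2 to 5 kb and 1 of 1006 peaks of at least 10 kb. Among 2-cell peaks, 42.6% of those under 500 bp overlapped no 14 hpa peak, against 0 of 363 peaks of at least 10 kb. The widest domains of either stage were therefore nearly always touched by a peak of the other, although 14 hpa domains of at least 10 kb were covered at the 2-cell stage over only 71.2% of their bases.

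Windows were sorted by stage. A window marked at 14 hpa and not at the 2-cell stage was termed lost, a window marked at both kept, and a window marked at the 2-cell stage only gained. These names describe peak calls, since a window without a peak was not shown to lack the mark. There were 110970 lost, 83673 kept and 27352 gained windows. Of the 14 hpa windows 57.0% were lost (95% Wilson interval 56.8 to 57.2%, counting error only), between 52.1 and 63.2% on single autosomes. Of the 2-cell windows 24.6% were gained (24.4 to 24.9%), between 21.0 and 32.1%. Not all of these were complete changes, because 61.6% of the lost windows held no base of a 2-cell peak and 47.3% of the gained windows no base of a 14 hpa peak. With the 14 hpa list trimmed from its weakest peaks down to the length of the 2-cell list, 44.1% of the 14 hpa windows were lost and 39.5% of the 2-cell windows were gained.

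The share of lost windows varied with base composition. Of the 14 hpa windows with GC below 36%, 94.8% were lost, against 75.5% at 40 to 42% GC, 39.1% at 46 to 48% GC and 18.3% at 55% GC and above. The share of 2-cell windows that were gained also fell along this axis, from 37.5 to 14.0%. AT-rich windows, with GC below 40%, made up 32.2% of the lost windows (31.9 to 32.5%), 4.52% of the kept (4.38 to 4.67%), 7.38% of the gained and 38.2% of all windows. Windows with GC of at least 50% made up 4.56% of the lost, 21.9% of the kept and 15.1% of the gained windows. Median CpG per kb was 7 in lost, 12 in kept and 9 in gained windows. Over all windows 8.47% had GC of at least 50%, and the median CpG was 7 per kb. Kept and gained windows were thus both richer in GC than the genome, and windows at both ends of the GC range were scarcer among the lost windows than among all windows. The part of GC-dependent amplification or of the input in this relation was not tested.

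Repeat content separated gained windows from the other classes. The share of soft-masked bases, the repeats and low-complexity sequence that the assembly writes in lower case, was 55.8% in lost and 56.0% in kept windows but 32.5% in gained windows, near the 33.5% of all windows. The difference was present within bands of GC content. At GC of 45 to 50% the masked share was 29.7% in gained, 54.0% in kept and 46.1% in lost windows. At GC of at least 50% it was 20.2, 55.9 and 36.9%. Accordingly, 38.7% of the 2-cell windows with under 10% masked bases were gained, against 7.10% of those with at least 90%. The share of lost windows showed no such slope, lying between 47.8 and 62.2% in every band of masked content. The families of these repeats are not named by the masking and were not analysed here.

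**Figure D2:**
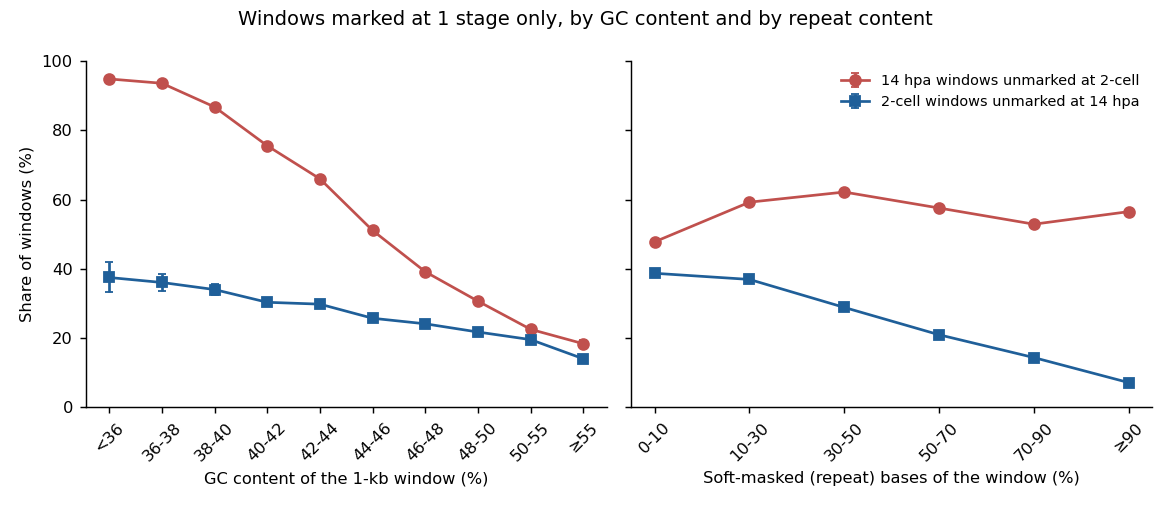
Share of 14 hpa windows unmarked at 2-cell (red circles) and of 2-cell windows unmarked at 14 hpa (blue squares), in percent, by GC content (left) and by soft-masked content (right) of the 1-kb window; bars are 95% Wilson intervals over windows. The red line drops from 94.8 to 18.3% with GC content, and the blue line drops from 38.7 to 7.10% with masked content.

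Peaks of low fold were lost most. With 14 hpa windows split by fold into 4 groups of equal size, 80.3% were lost in the lowest group and 32.5% in the highest. For gained windows among 2-cell windows the shares were 40.2 and 11.1%. Lost windows lay in exons in 4.72%, in introns of protein-coding genes in 20.4% and between genes in 65.2% of cases, kept windows in 4.17, 19.9 and 65.7%, gained windows in 7.32, 24.0 and 57.3% and all windows in 10.6, 31.4 and 50.2%. Every class was thus poorer in exons and introns than the genome. Along the chromosomes, with each autosome cut into 5 equal parts, lost shares were 59.4% in the part nearest the centromere and 51.3% in the most distal part, and gained shares 19.2 and 27.0%.

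The other 8 lists were used to trace where the windows were marked before and after. They do not enter the choice of windows. Of the lost windows 48.9% were marked in CC (48.6 to 49.2%) but 22.6% at 6 hpa, so many lost windows were CC marks without a peak at 6 hpa. Of the kept windows 67.2% were marked in CC and 62.3% at 6 hpa, and of the gained windows 20.0 and 23.0%. CC marked 8.25% of all windows. Sorted by history, 14 hpa windows that had been marked in CC and at 6 hpa were lost in 29.7% of cases, those marked in CC and not at 6 hpa in 71.8%, those marked at 6 hpa and not in CC in 41.7%, and those marked in neither in 74.2%. The order of loss from CC and 6 hpa windows to CC windows without a 6 hpa peak held at like GC. In windows of 45 to 50% GC the shares were 24.7 and 45.4%, and in windows below 40% GC 72.9 and 90.7%.

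After the 2-cell stage, kept windows were marked in 73.2, 64.8 and 70.6% of cases in the 4-cell, 8-cell and morula lists, and in 59.4% in the inner cell mass (ICM) and 58.9% in the trophectoderm (TE). Gained windows were marked in 52.9, 48.5 and 43.7% of cases in the same lists, but in 24.3% in ICM and 24.1% in TE. Lost windows were marked in 18.5, 17.6 and 29.5% of cases in these lists, in 27.4% in ICM and in 23.5% in TE. In at least 1 of these 5 later lists 51.6% of the lost, 92.2% of the kept and 79.3% of the gained windows were marked. In fertilized zygotes at pronuclear stage 5 (PN5) 15.97% of the lost, 46.9% of the kept and 18.96% of the gained windows were marked. The labels list the PN5 libraries within this series, while the paper states that its PN5 data came from an earlier publication. Peaks in none of the other 8 lists were found for 20.2% of the lost, 1.63% of the kept and 11.7% of the gained windows.

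**Figure D3:**
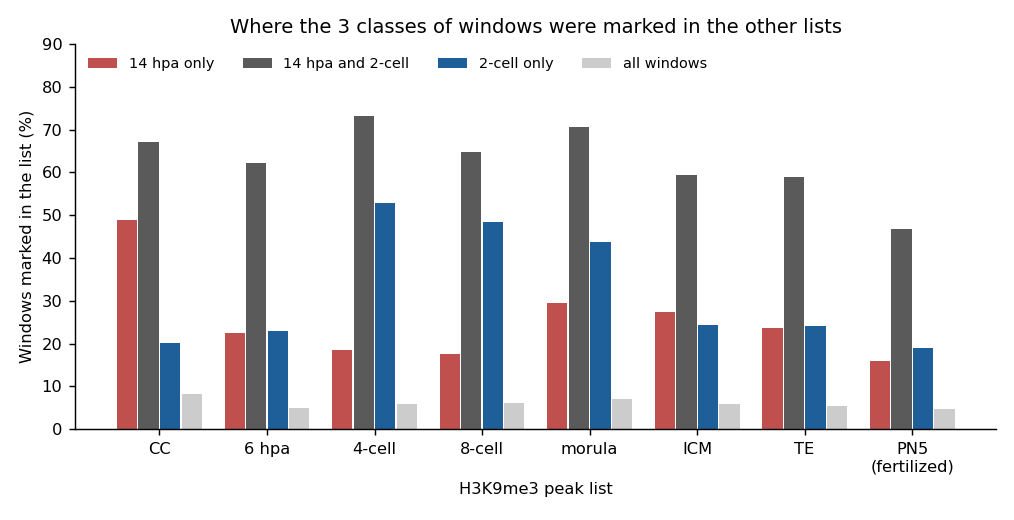
Share of lost (red), kept (dark grey) and gained (blue) windows and of all windows (light grey), in percent (y axis), that were marked in each of the 8 other H3K9me3 lists (x axis). Lost windows stand highest in CC at 48.9%, and gained windows highest at the 4-cell stage at 52.9%.

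Genes were then compared by the share of the gene body in peaks. Of 20807 autosomal protein-coding genes, 604 were covered over at least 50% at 14 hpa and 337 at the 2-cell stage. Coverage was lower at the 2-cell stage for 7776 genes, higher for 2237 and equal for 10794, nearly all of these without a peak. A gene was termed lost when at least 50% was covered at 14 hpa and under 10% at the 2-cell stage, which held for 140 genes (0.673% of those compared). It was termed kept when at least 50% was covered at both, which held for 212 (1.02%), and gained in the reverse case, which held for 51 (0.245%). Predicted gene models made up 62 of the lost, 85 of the kept and 16 of the gained genes. By number, lost genes were most frequent on chromosomes 7 (37 of 2023 protein-coding genes), 14 (21 of 902) and 5 (16 of 1260). Kept genes were also most numerous on these chromosomes (51, 25 and 23), while gained genes were most numerous on chromosome 11 (11 of 1639). Median coverage of the lost genes was 77.5% in CC, 29.7% at 6 hpa and 69.7% at 14 hpa. That of the gained genes was 0% in CC, 37.1% at 6 hpa and 0% at 14 hpa, then 64.8, 36.2 and 45.5% at the 2-cell, 4-cell and 8-cell stage. Each median was taken per list and does not trace a single gene. The 14 hpa and 2-cell values were bounded by the definition of the classes. Of the 51 gained genes 22 were covered over at least 50% at 6 hpa, 22 at the 4-cell and 23 at the 8-cell stage. The counts of lost and gained genes moved with the length of the 14 hpa list, since after trimming 31 genes were lost and 122 were gained.

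The lost genes with the most peak bases included a pair of neighbours on chromosome 7. Obox6, of the oocyte-specific homeobox family (15833241 to 15839678), was covered over 100% in CC, 93.9% at 6 hpa and 98.5% at 14 hpa. From the 2-cell to the 8-cell stage it stood at 0, 0 and 3.06%. Crx (15865947 to 15879968), a homeobox factor of photoreceptors, went from 61.4% at 14 hpa to 0% at the 2-cell stage and stood at 0.977% in the morula and 0% in the other later SCNT lists. BC024063, Zfp781 and Zfp433 lie together on chromosome 10, and the Zfp genes encode zinc finger proteins. Zfp433 was covered over 56.5% at 14 hpa and 8.31% at the 2-cell stage, and again over 39.1% in ICM.

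Prl2c2, a placental hormone of the prolactin family, stood at 92.2% in CC and 5.96% in the 6 hpa list, then at 68.9% at 14 hpa and 6.33% in 2-cell embryos. Olfr401, an olfactory receptor gene, had a like course, with 78.0, 14.7, 66.9 and 9.20% at these stages. Both were therefore covered in CC, hardly covered at 6 hpa and covered again at 14 hpa. The promoter of Prl2c2 differed from its gene body, being marked at the 2-cell stage and not at 14 hpa. Ceacam19, a cell adhesion molecule of the immunoglobulin superfamily, had no CC peak, was covered over 50.6% at 14 hpa and 9.05% at the 2-cell stage, and was covered over 63.5% in PN5. Its promoter was marked at both 14 hpa and the 2-cell stage.

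The kept genes with the most peak bases were long genes, as this choice favours, and the 8 named here were all covered less at the 2-cell stage, with differences (2-cell minus 14 hpa) between -16.3 and -0.516 points. Csmd2, a transmembrane protein with CUB and Sushi domains, was covered over 60.6% of its 579.8 kb at 14 hpa and 56.8% at the 2-cell stage. Cdh4, a cadherin of the nervous system, was covered over 51.8% in CC and 56.3% at 6 hpa, and over 55.5, 54.96 and 57.0% in the 14 hpa, 2-cell and 4-cell lists. Ajap1, an adherens junction protein on distal chromosome 4 whose sequence is printed above, was covered over 94.0 and 92.6%. Its coverage was 69.97% at the 8-cell stage and 20.8% in ICM. Sfi1, a centrin-binding protein of the centrosome, was covered over 98.8 and 95.6%, and over 0.167% in ICM. Myo18b, an unconventional myosin of muscle, stood at 77.5 and 73.1%, Rimbp2, a scaffold of the presynaptic terminal, at 80.8 and 64.5%, Ccdc60 at 87.7 and 74.2% and Tcerg1l at 69.8 and 55.9%. The 8 genes were covered over between 48.9 and 98.9% in CC and between 0.167 and 20.8% in ICM.

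The median gained gene was 1.01 kb long, against 2.64 kb for lost and 3.09 kb for kept genes. Polrmt, the RNA polymerase of mitochondria, was covered over 2.22% at 14 hpa and 51.8% at the 2-cell stage. Klk1b3 and Klk1b9, glandular kallikrein proteases on chromosome 7, had no base covered at 14 hpa and 64.9 and 59.5% at the 2-cell stage. Klk1b3 was then covered over its whole length at the 4-cell and 8-cell stages. Krt36, a hair keratin, was covered over 0% at 14 hpa, 71.7% in 2-cell and 78.0% in 4-cell embryos. Nkx2-1, a homeobox factor of thyroid and lung, was covered over 77.2% at 6 hpa, 0% at 14 hpa, 50.3% at the 2-cell and 4-cell stages and 0% from the 8-cell stage on. Hoxd11, a limb and axis patterning factor, was covered over 53.0% at 6 hpa, over 8.93% by 14 hpa and over 57.6% in 2-cell embryos.

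**Figure D4:**
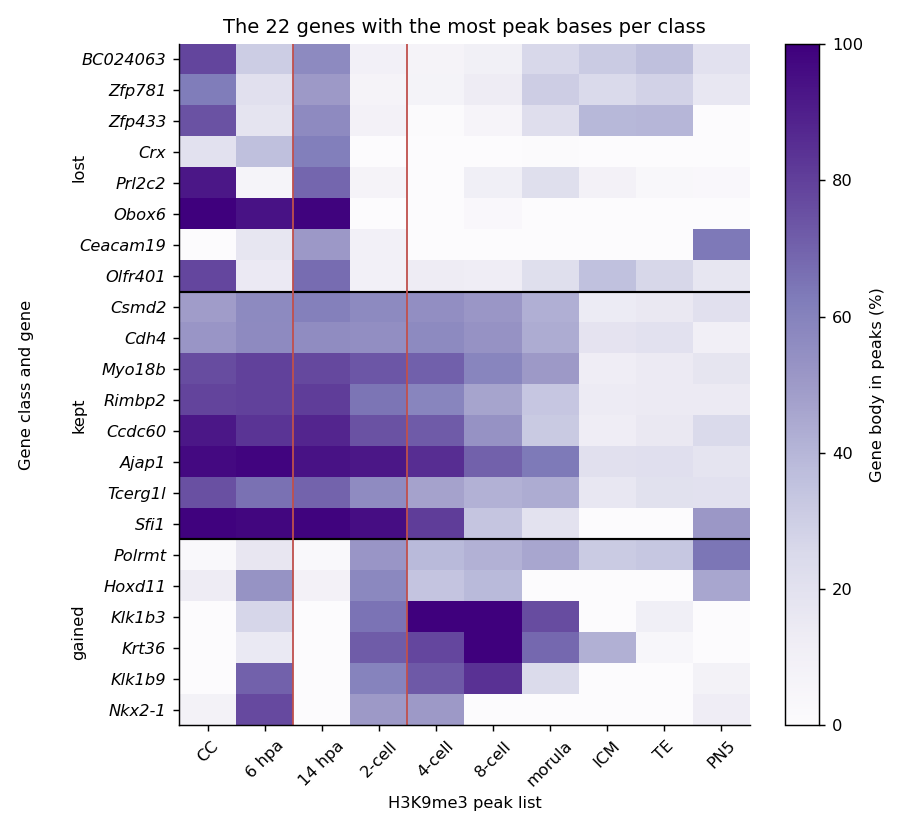
Share of the gene body in peaks (colour, 0 to 100%) for the 8 lost, 8 kept and 6 gained genes with the most peak bases (rows) in the 10 H3K9me3 lists (columns); red lines enclose 14 hpa and 2-cell, the lists that chose the genes. Lost genes are pale from the 2-cell to the 8-cell column, kept genes stay dark to the 4-cell column, and gained genes are pale at 14 hpa.

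Genes that the embryo first transcribes were then taken as a list. The 29 autosomal genes of the 2-cell stage were covered over 32.7% of their bases at 14 hpa and 12.2% at the 2-cell stage, against 5.27 and 3.23% for all protein-coding genes. Coverage was lower at the 2-cell stage for 19 of them, higher for 0 and equal for 10, and it was also lower against the trimmed 14 hpa list (24.6%). The lost genes were Tdpoz4, a BTB-domain gene, Zscan4e, of a telomere-regulating zinc finger family, and the ubiquitin peptidase genes Usp17la and Usp17lb. Tdpoz4 was covered over its whole length in CC, over 68.8% at 6 hpa, over 100% by 14 hpa, and over 0% from the 2-cell stage to TE. Zscan4e was covered over 57.6 and 1.65%, Zscan4c over 34.5 and 0%, Usp17la over 63.3 and 6.77% and Usp17lb over 79.0 and 6.82%. Gm16513 stood at 100 and 17.7%.

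Not every gene of this list lost its mark. Duxf3, the Dux factor that activates 2-cell genes, was covered over 100% in CC and at each stage from 6 hpa to the 8-cell stage. Tdpoz3, a neighbour of Tdpoz4, was covered over 100% at 14 hpa and 95.9% at the 2-cell stage. Sp110, a nuclear body protein, was covered over 96.2 and 75.5%. Zfp352, Tdpoz1, Tdpoz2, Ubtfl1, Spz1, Tcstv3, Tmem92, Dppa2 and Dppa4 had no covered base at either stage. Tcstv1 went from 37.1 to 0%. Of the 29 promoters 9 were lost (31.0%, against 5.27% of all promoters), 4 kept (13.8%, against 3.31%) and 0 gained. The kept ones were those of Duxf3, Sp110, Tdpoz3 and Usp17lb, so Usp17lb was lost by gene body but kept by promoter. Several of these genes are near-identical copies, so that the mark of 1 copy may be counted at another.

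Obox genes, homeobox genes of oocyte and early embryo in a cluster on chromosome 7, had the highest coverage of the lists. It was 72.5% at 14 hpa and 22.8% at the 2-cell stage (50.2% at 14 hpa after trimming), and it was lower at the 2-cell stage in 7 of 7 genes. Obox8 went from 100 to 40.2%, Obox7 from 66.5 to 0% and Obox1 from 75.5 to 22.3%. Obox1, Obox2 and Obox3 overlap in the annotation and are not independent. Of the 7 Obox promoters 2 (28.6%), those of Obox6 and Obox8, were lost, against 5.27% of all promoters. Another 5 (71.4%), among them that of Obox7, were kept, against 3.31% of all promoters. Prame-like genes, cancer-testis genes with leucine-rich repeats, went from 24.4 to 7.66% (12.7% at 14 hpa after trimming), lower in 15 and higher in 0 of 19. Pramef25 went from 74.0 to 0% and Oog3 from 70.3 to 9.50%. Oocyte genes went from 32.4 to 14.4%, and the difference nearly vanished against the trimmed list (14.7%). Within them the Nlrp genes on chromosome 7, innate-immune-type genes that include maternal effect genes, were all lower in gene-body coverage at the 2-cell stage. Nlrp2 stood at 51.1 and 10.2% and Nlrp5 at 55.3 and 21.4%. Khdc3, a member of the subcortical maternal complex, was gained, with 0% at 14 hpa and 72.4% at the 2-cell stage, and with 61.4% at 6 hpa. By promoter the oocyte list was mixed, with 5 of 34 lost (14.7%), 2 kept (5.88%) and 6 gained (17.6%). The shares of all promoters were 5.27, 3.31 and 3.08%. Those gained in the oocyte list included the promoters of Nlrp2, Nlrp4e and Nlrp14.

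Hox genes, which pattern the body axis in 4 clusters, had the opposite course. They were covered over 7.43% at 14 hpa and 15.96% at the 2-cell stage. After trimming, which can only lower it, the 14 hpa value was 1.04%. Of 39 genes 19 were higher and 7 lower at the 2-cell stage. Hoxa4 was gained, with 67.0% at 6 hpa, no covered base at 14 hpa and 69.7 and 72.1% in 2-cell and 4-cell embryos. Hoxa5 went from 35.0 to 76.1% and Hoxb5 from 14.2 to 62.2%. Of the 39 genes 2 were gained, 1 was kept and 13 had no peak at either stage. Of all protein-coding genes 0.245% were gained and 1.02% kept. Of the Hox promoters 11 (28.2%) were gained, 9 (23.1%) kept and 1 (2.56%) lost, against 3.08, 3.31 and 5.27% of all promoters. Of the gained ones 9 had been marked at 6 hpa and 9 were marked at the 8-cell stage. Hoxc4, Hoxc6 and Hoxc8 had no covered base at either stage, whereas in the same cluster the Hoxc9 promoter was gained and those of Hoxc12 and Hoxc13 were kept.

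Keratin and keratin-associated genes, the structural proteins of epithelium and hair, were covered over 5.05% at 14 hpa and 11.5% at the 2-cell stage. The trimmed 14 hpa list, which cannot exceed the full one, covered 1.84%. Of 106 genes 42 were higher and 13 lower, and 8 were gained, against 0.245% of all protein-coding genes. Among the 8 were Krtap11-1 (0 to 97.2%), Krtap4-6 (0 to 96.5%) and Krt36. The change was not uniform, as Krtap6-5 went from 88.9 to 0%. Of the keratin promoters 20 (18.9%) were gained, 10 (9.43%) lost and 12 (11.3%) kept, against 3.08, 5.27 and 3.31% of all promoters. Of the 20 gained ones 16 were marked at the 4-cell stage. Of the genes 4 (3.77%) were lost and 4 (3.77%) kept, against 0.673 and 1.02% of all protein-coding genes. Trophectoderm and endoderm regulators stood at 5.93 and 7.15% (3.29% after trimming), with Sox17, an endoderm factor, at 40.4% at 6 hpa, with no covered base at 14 hpa and 8.90% in 2-cell embryos.

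**Figure D5:**
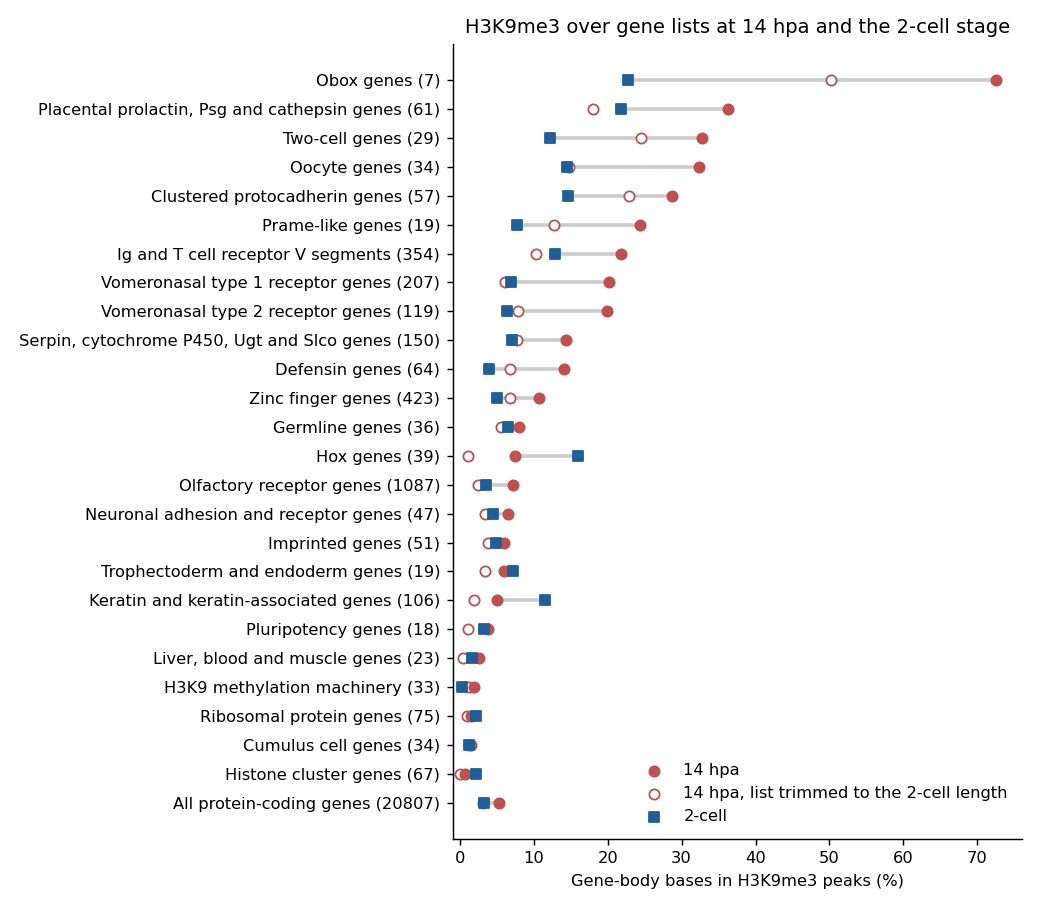
Share of gene-body bases in H3K9me3 peaks (x axis, %) for 25 gene lists and all protein-coding genes (rows, number of genes in brackets) at 14 hpa (red circles), at 14 hpa with the list trimmed to the 2-cell length (open circles) and at the 2-cell stage (blue squares). Obox genes went from 72.5 to 22.8% and Hox genes from 7.43 to 15.96%; where the open circle lies left of the square and the filled one right of it, the direction turned with trimming.

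Tandem gene families outside the embryo's own genes had less coverage at the 2-cell stage, but for several the direction turned after trimming. Zinc finger genes, many of which encode repressors that recruit H3K9 methylation to transposons, went from 10.6 to 5.01% (6.71% at 14 hpa after trimming). Of 423 genes 212 were lower and 45 higher. The 33 zinc finger genes of chromosome 4 went from 37.96 to 14.5%, and 14 of them at 14 hpa and 1 at the 2-cell stage were covered over at least 50%. Within this group Zfp988 stood at 80.9 and 21.7% and Zfp993 at 67.6 and 10.5%. Clustered protocadherins, adhesion molecules that give neurons their identity, went from 28.7 to 14.6% (22.8% after trimming), with 51 of 57 genes lower and 1 higher. Defensins, antimicrobial peptides, went from 14.0 to 3.96% (6.68%), with 10 of 64 genes lost (15.6%, against 0.673% of all protein-coding genes) and 0 gained. Vomeronasal type 2 receptors went from 19.9 to 6.33% (7.83%), lower in 102 and higher in 4 of 119. Serpin, cytochrome P450, Ugt and Slco genes went from 14.4 to 6.96% (7.72%).

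Vomeronasal type 1 receptors, the pheromone receptors, went from 20.2 to 6.84% with 16 of 207 genes lost (7.73%, against 0.673% of all protein-coding genes). The trimmed 14 hpa list covered 6.12%, however, so that the direction turned. The same held for olfactory receptors, at 7.11 and 3.56% against 2.44% after trimming, for immunoglobulin and T cell receptor V segments, at 21.8 and 12.8% against 10.2%, and for placental prolactin, Psg and cathepsin genes, at 36.3 and 21.8% against 17.9%. It also held for neuronal adhesion and receptor genes, at 6.45 and 4.37% against 3.39%. Among 354 V segments, annotated apart from protein-coding genes, 40 (11.3%) were lost, 40 (11.3%) kept and 6 gained. Of the placental genes 12 of 61 were kept (19.7%, against 1.02% of all protein-coding genes). Genes of liver, blood, muscle and nerve, tissues not sampled here, stood at 2.59 and 1.62% against 0.438%. All protein-coding genes together turned as well, from 5.27 to 3.23% without and 3.06 to 3.23% with trimming.

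Pluripotency genes stood at 3.71 and 3.20%, below all protein-coding genes at 14 hpa (5.27%) and near them at the 2-cell stage (3.23%). Their direction turned with trimming (1.07%). Cumulus cell genes stood at 1.48 and 1.17% (1.18% after trimming), below all protein-coding genes at both stages. Pou5f1, which encodes Oct4, had no covered base at either stage. Sox2, its partner, was covered over 43.1% at 14 hpa and 20.5% at the 2-cell stage. The enzymes and readers of H3K9 methylation stood at 1.82 and 0.218% (1.25% after trimming), lower in 13 and higher in 1 of 33 genes. Setdb1, an H3K9 methyltransferase, went from 4.49 to 0%, Kdm4d, an H3K9 demethylase, from 8.95 to 0.493% and Kdm4b from 5.48 to 0%. Germline genes stood at 7.95 and 6.51% (5.47%, turning the direction).

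Imprinted genes stood at 5.93 and 4.90%, and the direction turned with trimming (3.75%). Of 51 genes 3 were kept, namely Cdkn1c, a cell cycle inhibitor, at 73.6 and 100%, Magel2 at 89.6 and 70.2% and Mkrn3 at 97.3 and 71.5%. Of 43 protein-coding imprinted promoters 13 (30.2%) were kept, 3 (6.98%) lost and 3 (6.98%) gained, against 3.31, 5.27 and 3.08% of all promoters. The kept ones included Peg3, Peg10, Nnat, Nap1l5, Snurf, Gnas and Zrsr1, which take part in domains whose parental copies differ in DNA methylation.

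Promoters, 1 kb on either side of the 5′ end, were compared by the study's own rule, by which a promoter is marked when a peak covers at least 50% of it or when it covers at least 50% of a peak. Of 20807 promoters, 1097 were lost (5.27%), 689 kept (3.31%) and 641 gained (3.08%). Against the trimmed 14 hpa list 246 were lost, 384 kept and 946 gained, so that the excess of lost over gained promoters turned into an excess of gained ones. High-CpG promoters were marked in 673 cases at 14 hpa and 481 at the 2-cell stage, and 76.4% (73.0 to 79.4%) of the former were lost while 66.9% (62.6 to 71.0%) of the latter were gained. Of intermediate promoters 244 and 246 were marked, with 44.7% lost and 45.1% gained. Of low-CpG promoters 869 and 603 were marked, with 54.5% (51.2 to 57.8%) lost and 34.5% (30.8 to 38.4%) gained. As a share of the marked promoters, lost and gained ones were thus most frequent in the high-CpG class. As a share of the whole class they were not, since 514 of 10395 high-CpG and 474 of 6580 low-CpG promoters were lost. Lost promoters had been marked at 6 hpa in 58.6% and in CC in 32.2% of cases, kept ones in 79.7 and 60.1%, and gained ones in 48.05 and 12.5%, against 29.9 and 7.83% of all promoters. At the 4-cell stage 12.5% of the lost, 63.1% of the kept, 34.2% of the gained and 6.10% of all promoters were marked.

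The lost promoters of highest fold were B4galt5, a galactosyltransferase of glycolipid synthesis (fold 4.75), Def8 (4.69), Spata21 (4.64), Grik3, a kainate receptor subunit (4.55), Mmp2, a matrix metalloproteinase (4.52), and Otop1, a proton channel (4.48). At B4galt5 peaks covered no base of the promoter in CC, 74.0% of it at 6 hpa, 67.7% of it at 14 hpa and none in each later SCNT list. The 6 promoters had no covered base in CC and were partly covered at 6 hpa and in PN5. Def8, Grik3 and Mmp2 still had 6.00, 23.8 and 35.3% of the promoter covered at the 2-cell stage. In the 4-cell list Def8 stood at 20.2% and Mmp2 at 61.25%, and Mmp2 also at 54.8% in the 8-cell list.

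The kept promoters of highest fold were Ybx1, an RNA-binding protein of maternal mRNA (5.92 at 14 hpa and 7.89 at the 2-cell stage), Mkrn3, an imprinted gene (5.88 and 4.71), Tmc2, a channel component of hair cells (5.17 and 5.08), Uros, an enzyme of heme synthesis (4.77 and 5.55), Henmt1, the piRNA methyltransferase (4.57 and 4.54), and Gbgt1 (4.55 and 4.69). The promoter of Henmt1, printed above, was covered over 31.3% in CC and 36.6% at 6 hpa, then over all of it in both the 14 hpa and the 2-cell list, and over 87.3 and 5.00% in the 4-cell and 8-cell lists. Gbgt1 had no peak in CC or at 6 hpa and was covered over 67.9% at 14 hpa and 98.9% at the 2-cell stage. These promoters thus differed in when the mark was first seen.

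The gained promoters of highest fold were Dppa3, a maternal factor that shields DNA methylation in the zygote (13.6), Eif5a, a translation factor (11.0), Tmem41b, a lipid scramblase (9.32), the histone genes Hist1h2ao and Hist1h2bq (8.21, 1 peak shared by both) and Pfn1, the actin-binding profilin (8.17). Their peaks were narrow and covered between 12.6 and 19.4% of the promoter. Each of the 6 was covered over 0% in CC, at 14 hpa, in PN5 and in all 5 later SCNT lists. At 6 hpa Hist1h2ao was covered over 41.1%, Pfn1 over 18.95%, Dppa3 over 9.30%, Eif5a over 9.05% and Tmem41b over 0%. When only peaks covering at least 50% of the promoter were counted, 420 promoters were lost, 268 kept and 136 gained, so most gained promoters rested on narrow peaks.

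Ribosomal protein genes showed this kind of gain. Of 75 promoters 11 (14.7%, against 3.08% of all promoters) were gained, among them Rpl13 and Rps23, 3 kept and 1 lost. The 11 were all high-CpG promoters, 2 had been marked at 6 hpa, 1 was marked in CC, 0 were marked at the 4-cell or 8-cell stage or in the morula or ICM, and 2 were marked in TE. Gene-body coverage of this list stood at 1.51 and 2.17% (0.967% at 14 hpa after trimming). Replication-dependent histone genes had 4 gained promoters of 67 (5.97%, against 3.08% of all promoters), all marked at 6 hpa. These are not independent, since the promoters of Hist1h2ao and Hist1h2bq shared 1 peak. Gene bodies of the histone list stood at 0.637 and 2.19% (0% after trimming). In the pluripotency list 3 of 18 promoters (16.7%), those of Dppa3, Nanog and Klf5, were gained, that of Klf2 was lost and that of Sox2 kept. Of 34 cumulus cell promoters 1 was kept (2.94%, near the 3.31% of all promoters), that of Lhcgr. It had folds of 5.95 at 14 hpa and 3.65 at the 2-cell stage and was not marked in CC.

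The longest stretches covered at one stage and free of peaks at the other were also of different kinds. The longest covered at 14 hpa lay at chr5:94207276-94222396 over Gm3106, a predicted protein-coding gene. Its 15.1 kb were covered over 100% in CC, 83.4% at 6 hpa and 0% in each list from 2-cell to morula, with GC of 41.8% and 4.76 CpG per kb. The next were 11.4 kb over Gm3183 and 10.6 kb over Gm6348, both on chromosome 5, 10.4 kb between genes on chromosome 8, and 9.92 kb over Gm16513 on chromosome 5. The 5 stretches were covered over 99.9 or 100% in CC and between 81.7 and 100% at 6 hpa. They were thus marked in the donor cell type and had no peak in 2-cell embryos. Their later course differed. The 4-cell, 8-cell and morula lists covered 24.8, 31.6 and 43.5% of the Gm6348 stretch. For the chromosome 8 stretch these lists gave 70.4, 74.3 and 92.6%. The stretches over Gm3183 and Gm16513, like that over Gm3106, had no covered base in them. The longest gained stretch was 6.24 kb in an intron of Snx9, a membrane-trafficking protein (chr17:5879484-5885719), with GC of 51.7% and 24.1 CpG per kb. It was covered over 0% in CC, 11.0% at 6 hpa, 43.3% at the 4-cell stage, 76.8% in ICM and 84.2% in TE. The others were 6.00 kb in an intron of Ttc34, 5.93 kb in an intron of the noncoding Gm34004, 5.35 kb in an intron of Rbfox3, a neuronal splicing factor, and 4.88 kb between genes on chromosome 4. The 5 gained stretches were covered over between 0 and 9.62% in CC. The longest stretch covered at both stages was 38.8 kb at chr4:140312040-140350817, and Ajap1 held one of 30.4 kb.

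Peaks of highest fold without a counterpart were short. At 14 hpa they had folds of 53.4 on chromosome 17 (434 bp), 31.8 on chromosome 10 (172 bp) and 21.6 in an intron of Zfp106 on chromosome 2 (179 bp), and all 3 places were covered over between 92.7 and 100% in each SCNT list from the 4-cell stage on. At the 2-cell stage they had folds of 68.1 at Zfp558 and the annotated miRNA Gm22854 on chromosome 9 (185 bp), 56.0 on chromosome 9 (177 bp) and 38.9 on chromosome 1 (164 bp). These were covered over between 89.2 and 98.9% in the 8-cell list, over 100% in the morula and over 0% in the remaining 7 lists. The first of each stage are shown because they carry the highest folds, from the plus strand of GRCm38.p6; neither holds a CG, so no letter is in capitals.
14 hpa peak of fold 53.4, chr17:4626322-4626441: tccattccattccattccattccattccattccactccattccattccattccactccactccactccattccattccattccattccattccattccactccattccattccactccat
2-cell peak of fold 68.1, chr9:18460276-18460395: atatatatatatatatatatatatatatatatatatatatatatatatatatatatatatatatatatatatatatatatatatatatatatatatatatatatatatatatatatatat

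The 2-cell sequence holds no G or C and occurs 8 times on the assembled chromosomes, and the 14 hpa sequence occurs once. Whether such peaks reflect the placement of reads in simple repeats was not tested.

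At the scale of 1 Mb, 2205 of 2403 bins had more marked windows at 14 hpa, 180 had more at the 2-cell stage and 18 had equal numbers. The bins named here were chosen after their values were seen. The bin with the most lost windows was 94 to 95 Mb of chromosome 5, which holds Gm3106 and other predicted genes, where 80.6% of windows were marked at 14 hpa and 18.4% at the 2-cell stage. Next to it, at 95 to 96 Mb, the shares were 63.8 and 15.6%. On chromosome 14 the bins from 3 to 6 Mb, again with families of predicted genes, had between 434 and 463 lost windows each. At 153 to 154 Mb of chromosome 4, around Ajap1, 742 windows were kept, 130 lost and 31 gained. The most gained windows, 149, lay at 119 to 120 Mb of chromosome 5 around Tbx3 and Tbx5, T-box factors of limb and heart, where 24.3% of windows were marked at 14 hpa and 32.6% at the 2-cell stage. Of the 6 bins with the most lost windows, 5 held families of predicted genes and 1, on chromosome 2, held no protein-coding gene.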

How the data were processed

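H3K9me3 peak lists of 14 hpa and 2-cell SCNT embryos were analysed, with the other 8 lists of the series beside them. Per the study's methods, the authors trimmed reads with Cutadapt (1.16 in the submitters' processing notes), aligned them to mm10 with BWA mem, merged libraries with SAMtools, removed duplicates and drew equal read numbers with Picard, and called broad peaks over input with MACS2. The MACS2 threshold is not given in the sources used here. Read counts per library are not used here. Each deposited peak carries a fold enrichment (a ratio), with its −log10 p value and −log10 q value. The deposited score column was not used.

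Peaks on the 19 autosomes were taken as deposited, without merging, and set against GRCm38.p6 and GENCODE M21 (numpy 2.4.6, pandas 2.3.3, pysam 0.24.0, statsmodels 0.14.6). Windows needed 50% assembled bases. Promoters were scanned with 500-base windows in steps of 10 bases. They were high-CpG if any window had 55% GC or more together with a CpG ratio from 0.75 up, and low-CpG if all stayed under 0.48. The interval code was checked on simulated peaks. Groups came from the labels. With 1 pooled list per group no test was run. Wilson 95% intervals cover counting error alone, and adjacent windows depend on each other. Alternatives were other −log10 q thresholds (2 and 3), other overlaps (10 and 90% of a window, 30% of a gene, 50% of a promoter) and a 14 hpa list trimmed to the 2-cell length.

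Named were the 8 lost, 8 kept and 6 gained genes with the most peak bases, up to 4 members per list with the widest difference and every gained member, the 6 promoters per class and 3 peaks per stage of highest fold, and the 5 longest stretches per stage. Members of lists and genes of interest named beyond this rule were chosen after their values were seen, and some genes are not reported here. Comparisons, lists and members were chosen with earlier results of these data known. Of 31 promoters looked up, 22 had a RefSeq sequence.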

Additional observations from a re-analysis of the deposited data

Results flagged for a closer look

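The comparison was made on autosomes, and peaks outside them were looked at separately. On the X chromosome 29.3 Mb were covered at 14 hpa and 13.9 Mb at the 2-cell stage, 17.9 and 8.49% of its assembled length. The ratio of 0.473 lay below that of any autosome. The mitochondrial chromosome, which carries no histones, held 6 peaks over 7941 bases in the 2-cell list and 1 peak over 585 bases in the 14 hpa list. Cumulus cells come from females, which carry no Y chromosome. The lists nevertheless held 438 peaks on Y at 14 hpa and 314 at the 2-cell stage, and the source of these was not tested.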

How the results depend on the processing

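No paired analysis was possible because each list was called on pooled replicates, which also meant that leaving out single replicates could not be tried. The ratio of covered length was 0.608 with −log10 q of at least 2 and 0.623 with at least 3. For −log10 q of at least 2, windows covered over 10%, windows covered over 90% and the trimmed 14 hpa list, in this order, lost windows made up 55.4, 50.4, 60.9 and 44.1% of 14 hpa windows, and gained windows 24.2, 22.7, 27.0 and 39.5% of 2-cell windows. In the same order the share of lost windows below 40% GC was 31.1, 41.9, 26.1 and 33.6%, the share of lost windows marked in CC was 51.1, 53.3, 48.1 and 51.1%, and that of kept windows marked in CC was 68.6, 70.9, 66.2 and 70.5%. The share of kept windows below 40% GC was 11.2% with windows covered over 10% and 2.75% with windows covered over 90%. The Jaccard index was 0.392 with −log10 q of at least 2 and 0.404 with trimming. Trimming gave 31 lost and 122 gained genes and 246 lost, 384 kept and 946 gained promoters, so that gained outnumbered lost in both. Calling genes at 30% gave 298 lost, 456 kept and 101 gained. Promoters covered over at least 50% numbered 420 lost, 268 kept and 136 gained. The other 10 values stayed within their interval or within 1.5 times the main count. The direction turned with trimming for all protein-coding genes together and for 9 of the 25 gene lists, as given beside them above, and for none with −log10 q of at least 2. Trimming can only lower coverage at 14 hpa. The Hox, keratin, trophectoderm and endoderm, histone and ribosomal protein lists, already higher at the 2-cell stage, therefore could not turn, and their trimmed values are no check of the direction. Trimming keeps fewer peaks at 14 hpa (55986) by construction; for the other settings the cause was not tested. Pooled lists and a threshold on peaks limit all of these values, since a weak mark without a peak cannot be seen.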

Other observations

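Gene types other than protein-coding genes also differed between the stages. Small nuclear RNA genes, most of them copies scattered over the genome, were covered over 6.51% of their bases at 14 hpa and 1.87% at the 2-cell stage. Of the 89 covered over at least 50% at 14 hpa, 72 were lost, 14 kept. MicroRNA genes stood at 8.36 and 7.29%, with 64 lost, 103 kept and 40 gained of 2054. Processed pseudogenes, the reverse-transcribed copies of mRNA, stood at 21.2 and 15.0%. Of 1623 covered over at least 50% at 14 hpa 541 were lost and 880 kept, and 232 of all 8924 were gained. Unprocessed pseudogenes stood at 25.3 and 14.5%. Long intergenic RNA genes stood at 9.72 and 6.08%, with 32 lost, 144 kept and 10 gained of 5209. Of 20807 protein-coding genes 0.673% were lost, 1.02% kept and 0.245% gained. Of the genes covered over at least 50% at 14 hpa, 80.9% of small nuclear RNA and 37.9% of microRNA genes were lost. The share was 33.3% for processed pseudogenes and 12.1% for long intergenic RNA genes, against 23.2% for protein-coding genes. Of these types small nuclear RNA genes had the lowest ratio of 2-cell to 14 hpa coverage, 0.287, and microRNA genes the highest, 0.872. The types were chosen after their values were seen, and many of these genes are near-identical copies.

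Within protein-coding genes the covered share was even along the gene, with 5.20, 5.51 and 5.10% of bases at 14 hpa in the first, middle and last part of equal length from the 5′ end and 3.29, 3.32 and 3.09% at the 2-cell stage. In zinc finger genes it was higher toward the 3′ end, where the finger-coding exon usually lies, with 8.33, 9.80 and 13.7% at 14 hpa and 3.80, 4.48 and 6.75% at the 2-cell stage. The ratio of 2-cell to 14 hpa coverage in the 3 parts was 0.456, 0.457 and 0.492.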
